A study of Neurospora discreta with 48 samples.

Results

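In the comparison of the 2 parental strains of Neurospora discreta at 15 min of light, 164 of the 9280 genes lay on small scaffolds, pieces of the assembly that hold fewer than 20 genes of the authors' deposited table. They came from 40 of the 64 scaffolds and were chosen by the number of listed genes per scaffold, without their levels or differences. That table lists no gene at 0 in both arms, so the number also depends on how many genes of a scaffold had counts. The study sequenced total RNA of mycelial pads, labelled as mycelia and conidia, in 48 libraries of 4 strains at 4 times with 3 replicates each. Results are given for 6 of these libraries, 3 of the North American parent FGSC8578, which carries the phenotype low RI, and 3 of the African parent FGSC8831, with high RI, a term the labels do not expand. Both strains grew in low glucose medium at a constant 25 °C in cycles with 12 h each of light and dark, and were taken 15 min into the light. The other 42 libraries are not analysed here. For every gene the authors' deposited table holds an average of arm A and an average of arm B, whose strains are not spelled out in its columns. The order of names in the table's title would put FGSC8578 in A and FGSC8831 in B, but directions are kept as A and B. With no value per library, arm means carry no SD. Nothing says that replicates were separate cultures, so p-values may reflect technical spread alone.

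A scaffold is a piece of an assembly in which stretches of sequence are placed in order, and runs of unknown bases may lie between them. In draft genomes of filamentous fungi most genes sit on a few long scaffolds, and short ones are often left over where repeats flank a stretch and it cannot be joined to its neighbours. Neurospora mutates repeated DNA in the sexual cycle by repeat-induced point mutation, which leaves AT-rich stretches with few genes. Short scaffolds can therefore carry ordinary genes from repeat-rich surroundings as well as poorly assembled copies. Light given to Neurospora after darkness activates the White Collar complex, and transcripts of its targets change within minutes. Genes carry IDs without names in the authors' deposited table, so no role can be stated for any of them. They are given by scaffold, start and end as listed there (genome build not given in the sources used here). Markers of mycelium and conidia could not be looked up for the same reason.

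The small scaffolds were chosen for holding few listed genes, so their gene density is a description and no finding. Up to the end of their last gene they summed to 1249 kb, which gives 7614 bases per gene (3706 on the 24 larger scaffolds). Listed gene spans covered 26.9% of that length (52.3% on larger scaffolds), which goes with the lower gene density where spans are alike. Single small scaffolds ran from 1714.5 to 35541.5 bases per gene. Scaffold 28, with 4 genes up to position 79460, is among the small ones, whereas scaffold 32, with 23 genes up to position 76279, is not. Scaffold lengths are not in the authors' deposited table, so the stretch after the last gene is not counted, and genes that are not listed may lie in the rest. The stretches before the first listed gene made up 39.6% of the summed length. The first gene began beyond position 5000 on 32 of the 40 small scaffolds and at a median position of 9938. On larger scaffolds it did so on 14 of 24, with a median position of 5899. Neighbouring listed genes had a median gap of 762 bases (quartiles 229.8 and 2465) against 1042 on larger scaffolds (480 and 2078). Gaps of at least 5000 bases made up 13.7% of 124 gaps on small scaffolds and 6.61% of 9092 on larger ones. Scaffold 29, for example, listed no gene before position 56554 and then 8 genes up to 78707.

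Small by number of genes was mostly but not wholly small by length. The last gene ended between positions 2326 and 131989, with a median of 18480. On 5 of the 40 it ended beyond position 76279, where the last gene of the shortest larger scaffold ended. Of the 40 scaffolds, 11 held 1 gene, another 11 held 2, and 12 held 5 or more, with 112 of the 164 genes. Just inside the limit stood scaffold 24 with 19 genes, a median level of 303 normalized counts per kb, a median log2 of B over A of 0.18 and 0 genes called by DESeq. Just outside stood scaffold 32 with 23 genes, a median level of 75.1 per kb, a median log2 of -0.49 and 4 genes called by DESeq.

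The genes on small scaffolds were more abundant per length than those on larger scaffolds. Levels are the mean of both arms in normalized counts, that is counts divided by a size factor for each library, per kb of gene span. The median was 266 normalized counts per kb (quartiles 90.6 and 655) on small scaffolds and 120 (37.9 and 345) on larger ones, 2.21 times as high. Of the 164 genes, 114 (69.5%) lay above the median of the larger scaffolds. The 95% binomial interval of the median on small scaffolds ran from 175 to 351 normalized counts per kb, and treats genes as independent. On 11 of the 12 small scaffolds with at least 5 genes the median per kb was above that of the larger scaffolds. These medians ran from 97.8 on scaffold 40 to 407 on scaffold 25. Without division by length, the median mean was 519 normalized counts against 223. Genes are not replicates, so no test was made of these differences. Together the 164 genes held 1.98% of the normalized counts of arm A and 1.86% of those of arm B.

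**Figure D1:**
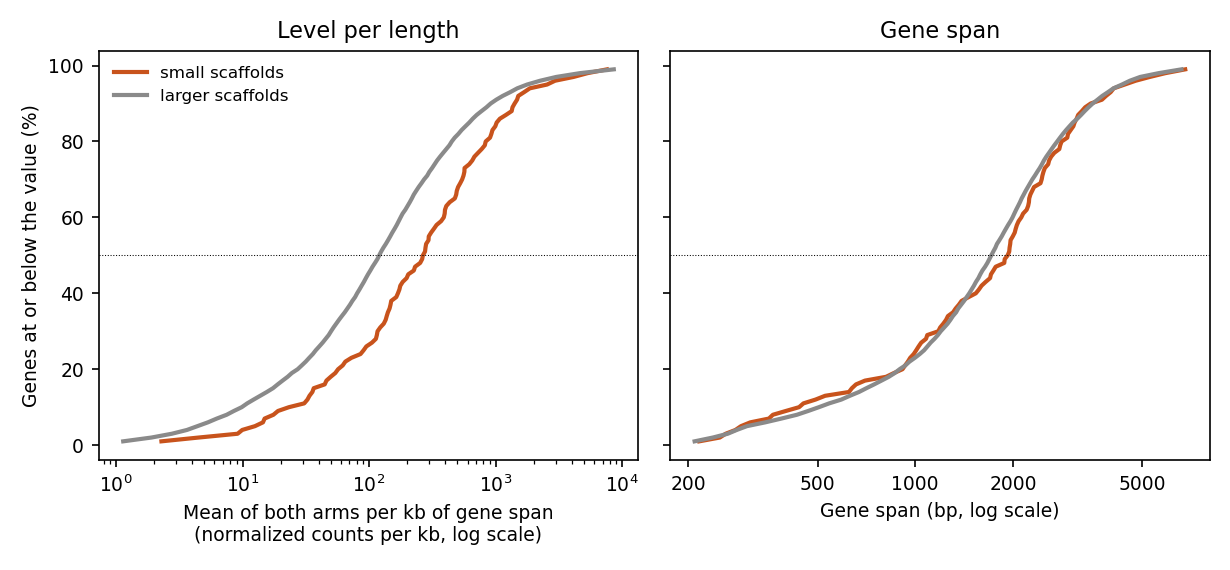
Cumulative share of genes (y axis, %) by level per kb of gene span (left, normalized counts per kb, log scale) and by gene span (right, bp, log scale), for 164 genes on small scaffolds and 9116 on larger ones, drawn from the 1st to the 99th percentile. The level curves stand apart, with medians of 266 and 120, whereas the span curves run close together, with medians of 1926 and 1715 bp.

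Gene spans, from start to end with introns included, were much alike. The median was 1926 bp on small scaffolds (quartiles 1007 and 2585) and 1715 bp on larger ones (1065 and 2491). The larger-scaffold median lay inside the 95% binomial interval of the small-scaffold median, 1594 to 2064 bp, which treats genes as independent and is no test. Weighting the medians of larger-scaffold genes in 7 tiers of mean level by the number of small-scaffold genes in each tier gave 1814 bp. This average of tier medians is not directly comparable with 1926 bp. In every tier under 2000 normalized counts the small-scaffold median was shorter. It was 468.5 against 1119 bp from 10 to under 50, and 2047 against 2069 bp from 200 to under 700. At 2000 or more it was longer, 2040 against 1883.5 bp. Models under 600 bp made up 13.4% and 12.2%, and models of 5000 bp or more 3.66% and 2.86%. The longest, on scaffold 26 (70320 to 87179), spanned 16860 bp and had means of 132 in A and 196 in B, in normalized counts of the authors' deposited table. The shortest, on scaffold 29 (64690 to 64860), spanned 171 bp and had 5.79 and 4.06. Low levels went with short models: of the 27 small-scaffold genes with a mean under 50 normalized counts, 18 (66.7%) spanned under 600 bp, against 37.7% of such genes on larger scaffolds. Genes on the plus strand were 81 of 164.

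No gene on a small scaffold was listed at 0 in either arm. With 0 of 164 genes, a share of up to 1.83% is allowed, a limit that stands for 3 genes in 164 and treats genes as independent. On larger scaffolds the authors' deposited table lists 153 genes (1.68% of 9116) at 0 in an arm, 107 of them in B. Weighted to the levels of the small-scaffold genes, the share was 1.16%, or 1.90 genes in 164. Both shares on larger scaffolds lay below that limit, so 0 of 164 does not set the small scaffolds apart, and no test was made. The authors' deposited table lists no gene at 0 in both arms: its lowest mean is 0.145 normalized counts, and the lowest on a small scaffold is 0.970. Of the 164 genes, 151 had a mean of at least 10 normalized counts and 137 a mean of at least 50. In arm B, 3 genes stood at the worth of 1 count in 1 library, and in arm A none did. A count was worth a mean of 0.291, 0.375 or 0.385 in B, read from the lowest values of the authors' deposited table. One of the 3, on scaffold 63 (16771 to 17680), is listed by the authors' deposited table at 2.87 in A against 0.291 in B. A further one, on scaffold 36 (47345 to 47850), has 1.57 against 0.375 there. The last is the called gene on scaffold 76 described further on.

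Few of these genes differed between the arms. A gene is called here when its DESeq adjusted p in the authors' deposited table, adjusted over all 9280 genes, is under 0.05. That held for 7 of the 164 genes (4.27%), against 15.0% of all genes in the table. Of the 7, 3 were higher in B (1.83%, against 6.93% of all genes) and 4 higher in A (2.44%, against 8.03%). By edgeR's false discovery rate in the authors' deposited table, 19 of 164 (11.6%) were called, against 21.4% of all genes. They split into 9 higher in B (5.49%, against 9.74% of all genes) and 10 higher in A (6.10%, against 11.6%). All 7 DESeq calls were among the 19. Before adjustment, DESeq's p in the authors' deposited table was under 0.05 for 24 of 164 (14.6%), against 25.2% of all genes. DESeq calls were spread over 6 of the 40 small scaffolds, and 34 had none.

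The lower share of calls was also seen at matched level. Weighting the call shares of larger-scaffold genes by the levels of the small-scaffold genes gave 15.2%, or 24.9 genes in 164, beside the 7 counted. For edgeR the weighted share was 21.3%, or 34.9 genes beside 19. Tiers at deciles of the level gave 15.0% for DESeq, and deciles of the level per kb gave 15.8%. In 6 of the 7 tiers the small-scaffold share was the lower one, and in the lowest tier it was 0 in both sets. From 700 to under 2000 normalized counts, 1 of 45 small-scaffold genes (2.22%) was called, against 239 of 1433 (16.7%). From 200 to under 700 the counts were 3 of 49 (6.12%) and 347 of 2611 (13.3%). From 50 to under 200 they were 2 of 20 (10%) and 363 of 2112 (17.2%). At 2000 or more, 1 of 23 small-scaffold genes (4.35%) was called, against 117 of 742 (15.8%). Below 50 none of 27 was called, against 315 of 2218 on larger scaffolds. Genes on 1 scaffold are not independent, and no test of the difference in shares was made.

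**Figure D2:**
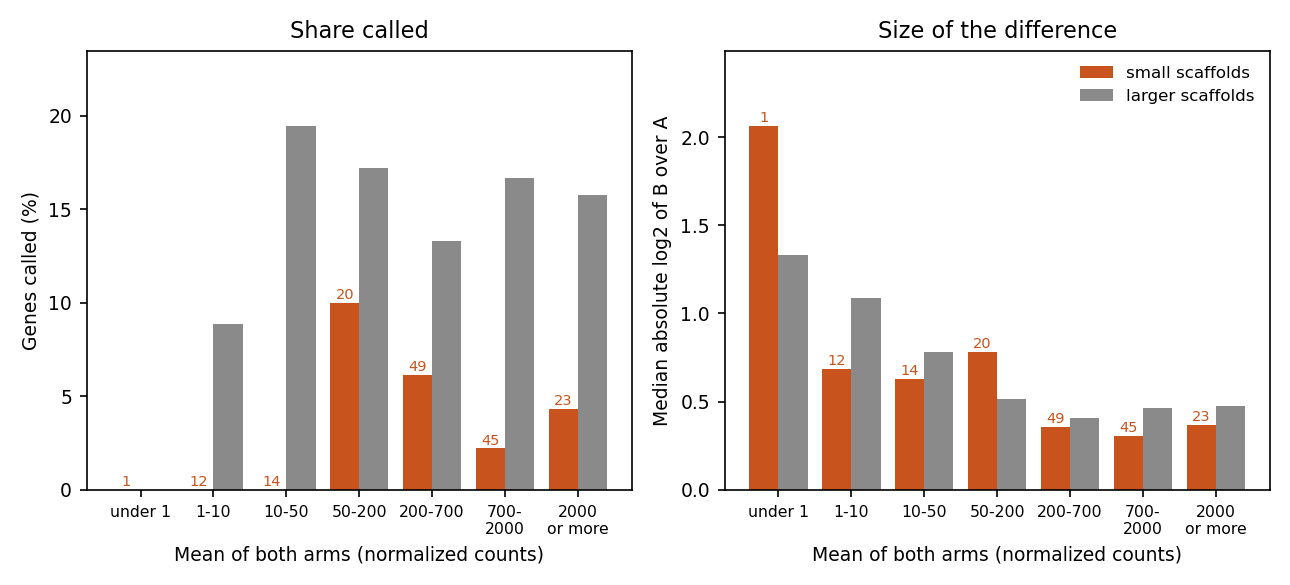
Share of genes called by DESeq (left, %) and median absolute log2 of B over A (right) in 7 tiers of the mean of both arms (x axis, normalized counts), for genes on small and larger scaffolds. The number over each small-scaffold bar is its count of genes. The share called is lower on small scaffolds in every tier but the lowest, where both are 0, and the median difference is lower in 5 of 7 tiers, the exceptions being the lowest tier, with 1 gene, and 50 to 200.

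The differences themselves were small. The median absolute log2 of B over A was 0.37 on small scaffolds, against 0.52 on larger scaffolds for genes above 0 in both arms. Larger-scaffold tier medians, averaged by the number of small-scaffold genes per tier, gave 0.53, which is not directly comparable with the 0.37. Within tiers the small-scaffold median was lower in 5 of 7, such as 0.36 against 0.41 from 200 to under 700. The exceptions were the lowest tier, with 1 gene, and 50 to under 200. In 102 of the 164 genes (62.2%) the absolute log2 was under 0.5, compared with 47.8% of genes on larger scaffolds. The interquartile range of the log2 values was 0.70 and 1.04 respectively. A difference of at least 2-fold occurred in 21 genes (12.8%), against a weighted share of 24.1%, or 39.5 genes in 164. The lower mean was in B for 15 of them. Larger-scaffold genes above 0 in both arms leaned the same way. Their log2 was -1.03 at the 14th percentile and 0.97 at the 88th. Of the 21, 10 had a mean under 50 and none of these was called by DESeq. Of the other 11, 7 were called (63.6%), against 78.1% of 1363 such genes on larger scaffolds. Below a mean of 50, 28.2% of the 2-fold genes on larger scaffolds were called. In the tier from 50 to under 200 the median absolute log2 was higher on small scaffolds, 0.78 in 20 genes against 0.52.

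**Figure D3:**
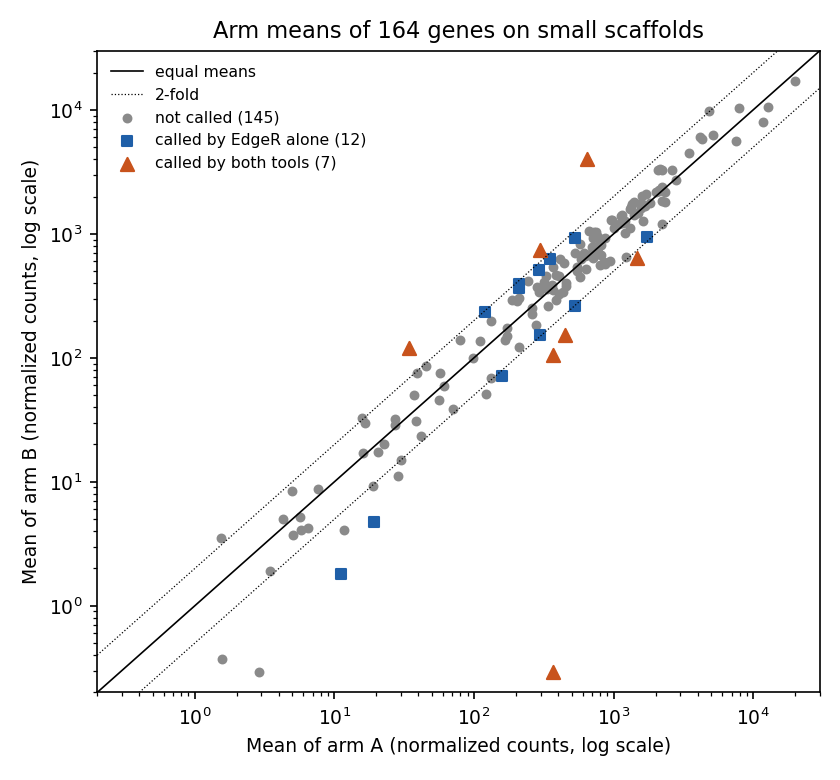
Mean of arm A (x axis) against mean of arm B (y axis) for the 164 genes on small scaffolds, in normalized counts on log scales, with lines for equal means and 2-fold differences. Most points lie between the 2-fold lines, and the gene on scaffold 76 stands at 371 in A and 0.291 in B.

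The largest difference was that of the only gene on scaffold 76, estExt_Genewise1.C_760003 (protein 88238, 9951 to 11558, plus strand). The authors' deposited table lists it at 371 normalized counts in A against 0.291 in B, the worth of 1 count in 1 library of B. The ratio of A to B was 1276, with an exact Poisson 95% interval from 229 to 50413 for the single count in B. If that count is taken at the largest worth seen in B, 0.385, the lower end is 173. These intervals cover counting error only. The DESeq adjusted p was listed at 0 to 4 decimals in the authors' deposited table, and the edgeR likelihood ratio there gives an adjusted p of 6.61e-47. Near-zero counts in 1 strain do not tell a silent gene from one missing or diverged in that strain, which was not tested. Without this gene, 6 of the calls are left.

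The remaining genes higher in A differed by 2.31- to 3.49-fold. On scaffold 152, which ends its last gene at 4668, estExt_Genewise1.C_1520001 (protein 88268, 1771 to 3511, plus strand) stood at 367 normalized counts in A against 105 in B by the authors' deposited table. It was 3.49-fold higher in A (DESeq adjusted p = 0.0009 there). Its neighbour on the minus strand, 159 bases downstream (3671 to 4668), stood at 1398 against 1424 (DESeq adjusted p = 0.995 in the authors' deposited table). The call was therefore not shared by the whole scaffold. On scaffold 36, a 364 bp model (20314 to 20677, plus strand) had 449.5 in A and 151 in B, 2.97-fold higher in A (DESeq adjusted p = 0.0023 in the authors' deposited table). It was the only model under 600 bp among the called genes. The single gene of scaffold 52 (25621 to 27499, minus strand) had 1461 in A and 633 in B, 2.31-fold higher in A (DESeq adjusted p = 0.0218 in the authors' deposited table).

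The genes higher in B lay on scaffolds 36, 26 and 40. On scaffold 36, estExt_fgenesh3_pm.C_360007 (protein 159304, 30936 to 32494, minus strand) stood at 641 normalized counts in A against 4050 in B by the authors' deposited table, 6.32-fold higher in B. There its DESeq adjusted p is again 0 to 4 decimals, and in the authors' deposited table the edgeR likelihood ratio gives an adjusted p of 3.78e-10. Its end overlaps that of the plus-strand model before it (29101 to 30984) by 49 bases. That neighbour stood at 80.0 against 139 (DESeq adjusted p = 0.268 in the authors' deposited table). Reads in the overlap cannot be told apart, since the sources used here do not say whether the counting used strand. On scaffold 26, estExt_fgenesh3_pm.C_260002 (protein 159252, 40767 to 43054, minus strand) stood at 34.4 in A against 119.5 in B by the authors' deposited table. It was 3.47-fold higher in B (DESeq adjusted p = 0.0122 there). On scaffold 40, a gene at 22249 to 23571 (minus strand) had 297 in A and 748 in B, 2.51-fold higher in B (DESeq adjusted p = 0.0112 in the authors' deposited table).

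A further 12 genes (7.32%) were called by edgeR alone, a share near the 6.84% of all genes. They were 6 higher in B (3.66%, against 3.06% of all genes) and 6 higher in A (3.66%, against 3.78%). Their absolute log2 of B over A had a median of 0.93, and the authors' deposited table lists their DESeq adjusted p between 0.0796 and 0.23. The largest differences were in genes of few counts. By the authors' deposited table, A had 11.2 against 1.81 in B on scaffold 61 (15665 to 16100) and 19.3 against 4.78 on scaffold 24 (128036 to 128841). The 6 higher in B had log2 values from 0.80 to 0.97. A pair of them were neighbours on scaffold 39 whose opposite-strand models overlap by 24 bases. The first (22391 to 25909) had 293 in A against 514 in B by the authors' deposited table, with an edgeR false discovery rate of 0.0494. The second (25886 to 27416) had 533 and 928 there, with a rate of 0.0427. Overlaps of 24 to 49 bases occurred in 8 of the 164 genes (4.88%), against 5.54% of genes on larger scaffolds with an overlap of any length.

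The 5 most abundant genes on small scaffolds were called by neither tool. They held 31.0% of the normalized counts of all 164 genes in A and 28.5% in B. The highest lay on scaffold 25 (27456 to 29402) and reached 19975 normalized counts in A against 17199 in B (DESeq adjusted p = 0.839 in the authors' deposited table). A gene on scaffold 24 (19201 to 20944) followed with 12806 and 10524 there (DESeq adjusted p = 0.733). Both had slightly lower means in B. A further gene of scaffold 25 (31771 to 32854) had 11775 against 7983 (DESeq adjusted p = 0.478 in the authors' deposited table). On scaffold 84 (11043 to 14377) the means were 7957 and 10265 in that table (DESeq adjusted p = 0.763). The widest gap among the 5 was on scaffold 26 (90445 to 93240), at 4824 against 9878 (DESeq adjusted p = 0.147 in the authors' deposited table).

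The sign of the median difference depended on how the arms were scaled. The median log2 of B over A was 0.081 on small scaffolds (quartiles -0.31 and 0.40), with a 95% binomial interval from -0.021 to 0.15. It was 0.024 on larger scaffolds. Their tier medians, averaged to the same levels, gave 0.057, which is not directly comparable with the 0.081. Within tiers the small-scaffold median was the higher one from 10 to under 700 normalized counts and the lower one elsewhere. It was 0.10 against 0.024 from 200 to under 700, and 0.12 against 0.25 from 700 to under 2000. Setting the summed means of both arms equal lowers every log2 by 0.17 and turns the small-scaffold median to -0.090 (interval -0.19 to -0.025). The mean was higher in B for 92 genes (56.1%), beside a weighted share of 55.9% on larger scaffolds. With equal sums, 66 genes (40.2%) would be higher in B, against an unweighted 41.7% on larger scaffolds. The unweighted share there was 51.0% as deposited. As on larger scaffolds, the share higher in B differed by level. It was 4 of 12 genes from 1 to under 10 normalized counts and 6 of 14 from 10 to under 50, and it was 29 of 45 from 700 to under 2000 and 15 of 23 above that. Larger-scaffold genes in the same tiers gave 42.8%, 40%, 67.8% and 71.6%.

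**Figure D4:**
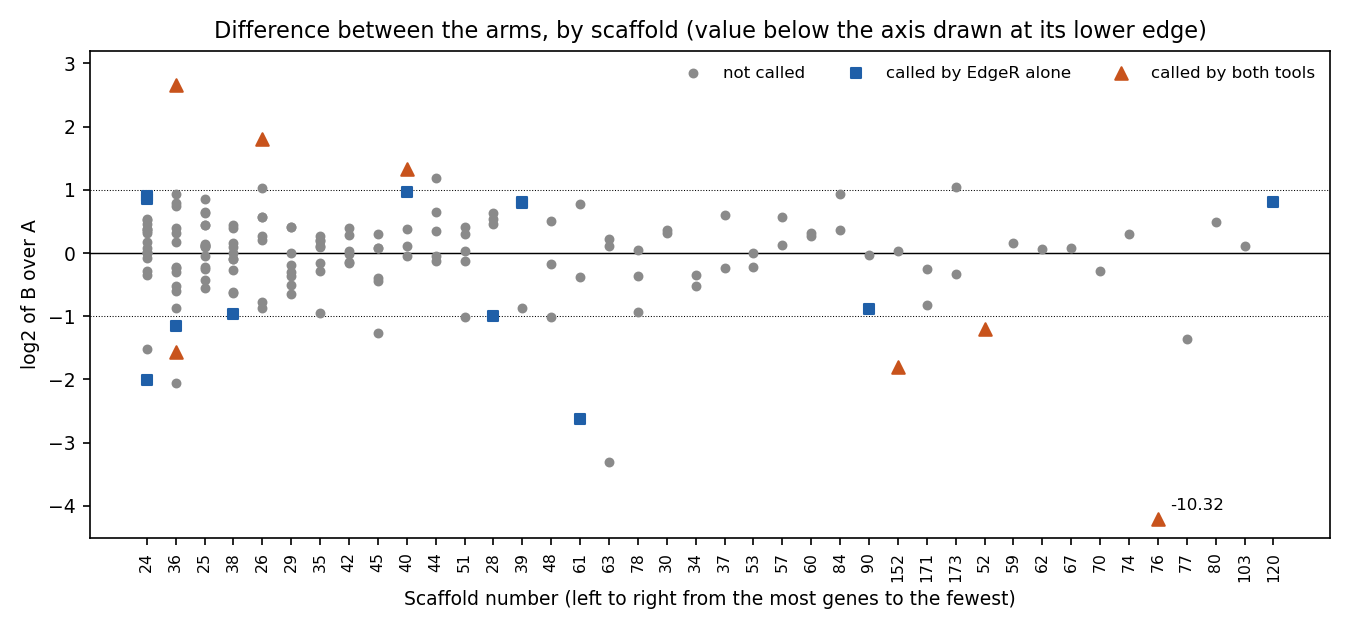
The log2 of B over A (y axis) for each of the 164 genes, by scaffold (x axis, ordered from 19 genes to 1), with dotted lines at 2-fold. Genes called by both tools are at most 2 per scaffold, and the gene on scaffold 76, at -10.32, is drawn at the lower edge.

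Scaffold by scaffold, only scaffold 36 held more than 1 gene called by DESeq, and these were not next to each other. The called genes of scaffolds 52 and 76 were the only listed genes there. Of the 12 small scaffolds with at least 5 genes, 8 had a median log2 above 0 and 4 below, and with equal sums of the arms 4 were above. Scaffold 24 had 14 of 19 genes higher in B, all of them among its first 17, and none called by DESeq. Its last 2 genes had lower means in B, at 19.3 against 4.78 and 11.8 against 4.12 by the authors' deposited table. Scaffold 25 had 15 genes with a log2 from -0.56 to 0.85 and no call by either tool, and scaffolds 29, 35, 42, 44, 45 and 51 likewise had none. Scaffold 36 held 2 of the 7 DESeq calls, in opposite directions. Among its 16 genes that was a share near the 15.0% called of all genes. Its log2 values had the widest range of these 12, from -2.06 to 2.66. Without scaffold 36 there were 5 calls. On scaffold 38, 7 of 11 genes had a lower mean in B, with log2 values from -0.96 to 0.44 and 1 edgeR call. The 28 scaffolds with 1 to 4 genes carried 52 genes and 3 DESeq calls, a lower share than the 15.0% of all genes. Of 124 pairs of neighbours on small scaffolds, 68 (54.8%) had log2 values of the same sign, against 56.0% of pairs on larger scaffolds.

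By number of genes per scaffold, the share called did not change steadily. It was 3 of 33 (9.09%) on scaffolds with 1 or 2 genes, 2 of 70 (2.86%) with 3 to 9, and 2 of 61 (3.28%) with 10 to 19. Scaffolds with 20 to 99 genes had 66 of 412 called (16%), those with 100 or more but under 300 had 250 of 1251 (20%), and those with 300 or more had 14.3%. Median levels on the 3 classes of small scaffolds were 391, 198 and 280 normalized counts per kb, against 116, 87.5 and 126 on the 3 classes of larger ones. The outermost listed genes of the larger scaffolds were described as well. They need not lie near the end of an assembled piece, since scaffold lengths are unknown. On scaffold 1 the first listed gene began at position 103613. Of the 240 genes among the first 5 and last 5 of each larger scaffold, 41 (17.1%) were called by DESeq and 8 (3.33%) were listed at 0 in an arm, with a median level of 139 normalized counts per kb. Whether mapping to small scaffolds, their place in the genome or the kinds of genes they hold moves with these values was not tested.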

How the data were processed

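Among the tools in the submitters' processing notes, which give no role or order, are DESeq and edgeR, HTSeq, SAMtools, TopHat2 2.1.1, and cutadapt 1.3 with FastQC 0.11.4. Per the file headers, the authors deposited DESeq means as a normalized signal (counts over size factors, for both arms and each arm), a fold ratio, and p-values with adjusted p-values. From edgeR, the authors deposited log2 fold changes, average expression in log2 CPM, the likelihood ratio as a score, and p-values with false discovery rates. Summed over 9280 genes, arm A held 9331506 and arm B 10507386 normalized counts, and library depths are unknown.

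The planned count model was not fitted, since it needs counts per library, and the authors' deposited DESeq adjusted p under 0.05, over all genes, made the calls. Log2 values were computed from the arm means. Where p was deposited as 0, it was computed from the likelihood ratio with Benjamini-Hochberg adjustment. Larger-scaffold genes were weighted by tiers of the mean, with limits at 1, 10, 50, 200, 700 and 2000 normalized counts. The arithmetic of this step was checked on simulated calls that depended on the tier alone. That check could only agree, and it says nothing about the comparison of small and larger scaffolds. Intervals of medians are binomial order-statistic intervals and cover neither replicate spread nor dependence between genes.

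By rule, called genes with means of 50 or more and the 5 most abundant were named; others were picked after their values were seen. Members, lists and tests were chosen with earlier results of these data known. Planned markers of conidia, mycelium and sexual tissue matched no name. Alternatives were the authors' edgeR calls, stricter limits, other gene limits per scaffold and overlapping models. Added after seeing the data were tiers per kb, classes of scaffolds, the outermost listed genes of larger scaffolds and a 600 bp limit. Python 3.11.15, pandas 2.3.3, NumPy 2.4.6, SciPy 1.17.1 and matplotlib 3.10.9 were used.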

Additional observations from a re-analysis of the deposited data

How the results depend on the processing

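No paired analysis was possible because each arm is deposited as a single mean. For the same reason leaving out replicates, a replicate block and other normalizations were not run. The 7 calls among 164 genes became 19 by edgeR, 4 at an adjusted p under 0.01, 2 at 4-fold or more and 11 of 187 with fewer than 40 genes per scaffold, which adds the 23 genes of scaffold 32. The other alternatives gave 5 to 7 calls. Over all genes, 1388 calls became 891 at 0.01 and 659 at 4-fold, because these limits are stricter. The median log2 of B over A moved from 0.081 to -0.090 with equal sums of the arms and lay between 0.033 and 0.088 otherwise. The median level stayed between 227 and 266 normalized counts per kb and the median span between 1785 and 1949 bp. The share at 0 in an arm was 0.535% with fewer than 40 genes per scaffold, and 1.83% of genes had at most 1 normalized count in an arm. At matched level per kb, the share at 0 on larger scaffolds was 0.808% in place of 1.16%. With 164 genes, 7 calls and no value per library, the spread between replicates cannot be given.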

Other observations

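The prefix of a gene ID names the source of its model. IDs with a prefix ending in kg made up 51 of the 164 genes on small scaffolds (31.1%) and 19.9% of genes on larger scaffolds. Such genes had a median level of 557 normalized counts per kb on small scaffolds and 374 on larger ones. Among the other IDs the medians were 178 and 96.7, so the small-scaffold median was the higher one within both classes. Of the 51 genes, 3 were called by DESeq, and of the other 113 genes, 4 were, against 14.2% and 15.4% on larger scaffolds. These classes were chosen after the values had been seen.

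The edgeR column of average expression in the authors' deposited table was compared with the log2 of the DESeq mean over both arms, for genes whose mean reached 100 normalized counts. The gap had a median of -3.35 and an SD of 0.19 over 128 genes on small scaffolds, and a median of -3.29 and an SD of 0.28 over 6020 genes on larger ones. The highest gap on a small scaffold, -2.40, was that of a gene on scaffold 61 (19040 to 20049), listed at 339 in A against 261 in B in the authors' deposited table. Which libraries the average covers is not given in the sources used here.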
